A study of Drosophila melanogaster with 3 samples.

Results

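The mitochondrial ribosome is built from RNAs encoded in mitochondrial DNA and from proteins encoded in the nucleus, and it translates the few proteins that mitochondrial DNA encodes, which are subunits of the oxidative phosphorylation complexes. Its protein genes were chosen here by name: every protein-coding gene whose symbol in the dm6 annotation starts with mRpL (large subunit) or mRpS (small subunit). That gave 73 genes of 13945 protein-coding genes on the 6 chromosome arms, 47 mRpL and 26 mRpS. For each, the question was whether a binding peak of the homeodomain protein HHEX lay at its promoter, where in the promoter, how strong it was, and whether the promoter is shared with another gene.

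HHEX (CG7056) belongs to the homeodomain proteins, transcription factors that contact short A/T-rich words in DNA. The chromatin came from whole Drosophila melanogaster embryos, males and females pooled, aged 0 to 24 h, of a transgenic line that stably carries CG7056 with GFP at its C-terminus. Sonicated chromatin fragments of 200 to 800 bp were immunoprecipitated with an antibody to GFP. There were 3 biological replicates of this 1 group and no second condition, so the reference for the mitochondrial ribosomal protein genes is the whole set of protein-coding genes in the same lists. The promoter that drives the fusion is not given in the sources used here, each signal is an average over all cells and stages of the embryos, and the control alignment that the replicates share was not analysed here. Bound therefore means that a peak was called: regions that any GFP precipitation would enrich cannot be told apart from HHEX sites.

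The list of peaks that passed the irreproducible discovery rate (IDR) procedure holds 5586 peaks, and the pooled list from which they come holds 30000 regions. Each replicate list also holds 30000 regions. A gene was called bound when the summit of an IDR peak lay within 1000 bp of one of its transcription start sites (TSSs). In a replicate, the same was asked of the 5586 regions with the highest signal. The files give regions and not reads, so the depth behind a value is unknown; at a −log10 q of at least 2, 9759, 3212 and 6498 regions were left in replicates 1, 2 and 3. The signal is the value the authors' peak caller gave each region, higher meaning more enriched, and it was not rescaled between lists.

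Of the 73 genes, 24 were bound (32.9%, exact Clopper-Pearson 95% interval 22.3 to 44.9%, which covers counting over genes only), against 23.2% of all protein-coding genes. Every one of the 24 has a head-to-head neighbour, a protein-coding gene on the opposite strand whose TSS lies within 1000 bp, so that both genes are transcribed away from the DNA between them. Head-to-head promoters are common in this gene family: 58 of the 73 genes (79.5%) have one, against 5141 of 13945 protein-coding genes (36.9%). They are also common among cytosolic ribosomal protein genes, 54 of 87 (62.1%), and oxidative phosphorylation genes, 43 of 84 (51.2%). The 5141 include 196 genes (75 bound) whose 5′ end overlaps that of the opposite-strand neighbour, and no member is so placed. At head-to-head promoters 24 of 58 members were bound (41.4%, 28.6 to 55.1%), against 36.5% of all head-to-head genes, the 196 included. The other 15 genes of the family held no bound member, which allows up to 21.8% at the same confidence, against 15.4% of all genes without a head-to-head neighbour. The 3 strongest peaks, at mRpL41, mRpS23 and mRpS10, ranked 15, 16 and 20 of the 5586.

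The DNA between the start sites is printed for 4 bound and 2 unbound promoters, to show what lies under strong peaks and at head-to-head promoters of like spacing with no IDR peak. Each is read 5′ to 3′ on the strand of the mitochondrial ribosomal protein gene, from genome release 6 (dm6), and all are outside annotated exons. Capitals mark 5 words on either strand: TATCGATA, the DNA replication-related element of many housekeeping promoters; GGTCACAC, core promoter motif 1; and the A/T-rich words TAATTA and CATTAA and YATTAAR, where YATTAAR stands for TATTAAA or TATTAAG or CATTAAA or CATTAAG. The mRpS23 stretch is the 190 bp around the summit in a 492 bp promoter shared with CenG1A (chr2L:13835374-13835563, minus strand), and the others run from start site to start site: mRpS10 with Art3 (chr3R:15229409-15229664, plus), mRpS2 with Mon1 (chr2L:4850420-4850640, minus), mRpL24 with betaggt-I (chr2L:4945362-4945578, minus), and, unbound, mRpL39 with Prosbeta2 (chr3L:14999667-14999950, minus) and mRpL32 with qless (chr3R:31252609-31252871, plus).
mRpS23: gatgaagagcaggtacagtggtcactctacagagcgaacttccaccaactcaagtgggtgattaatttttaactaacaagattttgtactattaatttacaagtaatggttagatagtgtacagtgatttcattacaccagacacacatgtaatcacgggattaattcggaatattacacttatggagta
mRpS10: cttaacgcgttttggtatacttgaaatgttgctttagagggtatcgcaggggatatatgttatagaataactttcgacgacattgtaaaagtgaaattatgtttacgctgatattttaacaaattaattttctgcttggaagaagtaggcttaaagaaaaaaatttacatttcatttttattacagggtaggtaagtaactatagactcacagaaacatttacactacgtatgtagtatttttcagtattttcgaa
mRpS2: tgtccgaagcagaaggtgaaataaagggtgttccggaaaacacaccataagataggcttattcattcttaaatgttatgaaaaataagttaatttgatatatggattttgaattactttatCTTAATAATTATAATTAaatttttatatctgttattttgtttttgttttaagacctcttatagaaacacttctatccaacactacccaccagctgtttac
mRpL24: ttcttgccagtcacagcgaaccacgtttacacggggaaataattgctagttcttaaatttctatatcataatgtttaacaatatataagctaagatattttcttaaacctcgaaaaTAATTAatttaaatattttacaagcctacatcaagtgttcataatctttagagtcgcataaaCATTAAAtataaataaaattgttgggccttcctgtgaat
mRpL39 (unbound): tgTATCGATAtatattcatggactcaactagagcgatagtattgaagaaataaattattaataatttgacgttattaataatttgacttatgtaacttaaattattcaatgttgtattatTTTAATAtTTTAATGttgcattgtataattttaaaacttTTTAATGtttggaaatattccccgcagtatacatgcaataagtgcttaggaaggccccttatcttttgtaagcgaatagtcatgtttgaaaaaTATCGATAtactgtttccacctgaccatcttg
mRpL32 (unbound): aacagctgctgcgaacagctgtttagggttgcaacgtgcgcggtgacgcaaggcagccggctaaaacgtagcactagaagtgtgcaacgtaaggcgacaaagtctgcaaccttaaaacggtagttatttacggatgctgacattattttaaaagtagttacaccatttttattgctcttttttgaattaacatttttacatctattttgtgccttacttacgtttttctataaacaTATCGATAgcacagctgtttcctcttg
The mRpS23 and mRpS10 stretches hold none of these words. The mRpS23 stretch leaves out most of that promoter, and TATCGATA occurs in the 300 bp window at the mRpS23 start site. The bound mRpS2 and mRpL24 promoters hold TAATTA and YATTAAR. The unbound mRpL39 promoter holds TATCGATA at both ends and 3 copies of YATTAAR, and the unbound mRpL32 promoter holds TATCGATA near its own start site.

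Among large-subunit genes 13 of 47 were bound (27.7%, 15.6 to 42.6%), and among small-subunit genes 11 of 26 (42.3%, 23.4 to 63.1%), against 23.2% of all protein-coding genes. The strongest large-subunit peak was at mRpL41 (FBgn0034001, peak chr2R:15217556-15217958), whose protein has no bacterial counterpart. Its signals in replicates 1, 2 and 3 were 774, 1114 and 837 (mean 908 ± 181, SD, n = 3), and 2715 in the pooled list. The summit lay 143 bp upstream of the mRpL41 start site, in a 762 bp span shared with CG8079, and all 3 replicates placed it among their 28 highest regions. mRpL23 (FBgn0035335, peak chr3L:2373440-2373778) encodes a protein whose bacterial counterpart lies at the exit of the peptide tunnel. Its signal was 490.1, 614 and 552 in replicates 1, 2 and 3 (552 ± 61.9, SD, n = 3), and 1661 pooled. It was the exception in position: the nearest start sites of mRpL23 and CG9004 are only 24 bp apart, and the summit lay 64 bp downstream of the nearest mRpL23 start site, in that gene's own 5′ UTR.

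mRpL24 (FBgn0031651, peak chr2L:4945348-4945611), whose bacterial counterpart starts large-subunit assembly, had signals of 227, 267 and 260.2 in replicates 1, 2 and 3 (251 ± 21.5, SD, n = 3), and 747 pooled. The summit fell 133 bp upstream of mRpL24 and 85 bp from betaggt-I, which encodes a subunit of a protein prenyltransferase. mRpL20 (FBgn0036335, peak chr3L:13017930-13018353), an early-binding protein in the bacterial ribosome, had 176, 144 and 124 (148 ± 26.1, SD, n = 3), and 453 pooled. Its summit lay 275 bp upstream and 124 bp from Icmt, the isoprenylcysteine methyltransferase gene. All replicates had both peaks among their 5586 highest regions.

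mRpL34 (FBgn0083983, peak chr2R:16098497-16098920) had signals of 96.3, 119 and 95.6 in replicates 1, 2 and 3 (104 ± 13.3, SD, n = 3), and 327 pooled, with the summit 145 bp from Dg, the dystroglycan gene. mRpL53 (FBgn0050481, peak chr2R:13953863-13954286) had 98.9, 118 and 114, with an SD of 9.06% of the mean (n = 3), and 321 pooled. Its summit lay in an intron of AGO1, the Argonaute gene of the microRNA pathway, 50 bp from an AGO1 start site, and mRpL53 shares its own start position with CG33155. mRpL37 (FBgn0261380) varied more between replicates, with 47.8, 117 and 92.6 (86.0 ± 35.3, SD, n = 3), and 256 pooled. Replicate 1 ranked it 8343, outside its 5586 highest regions.

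mRpL33 (FBgn0040907, peak chrX:4322660-4323083) was the only bound member on X. Its signals were 77.5, 57.0 and 49.9 (61.5 ± 14.3, SD, n = 3), and 226 pooled. The summit was 641 bp upstream of mRpL33, beyond the shared promoter and inside the 5′ UTR of norpA, the phospholipase C gene of phototransduction. With mRpL2, whose protein lies by the peptidyl transferase centre in bacteria, it marks the inner edge of the 1000 bp rule: the mRpL2 summit was 807 bp upstream, in an intron of the forkhead gene FoxK. The nearest unbound members beyond that limit were mRpL55, with an IDR summit at 1414 bp, and mRpL13, with one at 1466 bp.

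Among small-subunit genes the strongest peak was at mRpS23 (FBgn0260407, peak chr2L:13835297-13835635), a protein with no bacterial counterpart. Its signals were 902, 959 and 817 in replicates 1, 2 and 3 (892 ± 71.4, SD, n = 3), and 2693 pooled. The summit lay 402 bp upstream of mRpS23 and 90 bp from CenG1A, an Arf GTPase-activating protein gene. mRpS10 (FBgn0038307, peak chr3R:15229345-15229713) had 785, 1001 and 786 (857 ± 124, SD, n = 3), and 2578 pooled, with the summit near the middle of the span, 137 bp from mRpS10 and 120 bp from Art3, an arginine methyltransferase gene. Replicate ranks were 16 to 19 for mRpS23 and 15 to 26 for mRpS10.

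mRpS2 (FBgn0031639, peak chr2L:4850416-4850716) had the steadiest signal, 260.1, 272 and 278 (269.8 ± 8.91, SD, n = 3), and 815 pooled, with its summit 76 bp from Mon1, which encodes a subunit of an activator of Rab GTPases. mRpS26 (FBgn0036774, peak chr3L:18106093-18106516) was as even, at 95.9, 88.5 and 92.1 (92.2 ± 3.67, SD, n = 3), and 274 pooled, with CG13698 as its neighbour. These SDs were 3.30% of the mean at mRpS2 and 3.99% at mRpS26, against 41.1% at mRpL37.

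**Figure D1:**
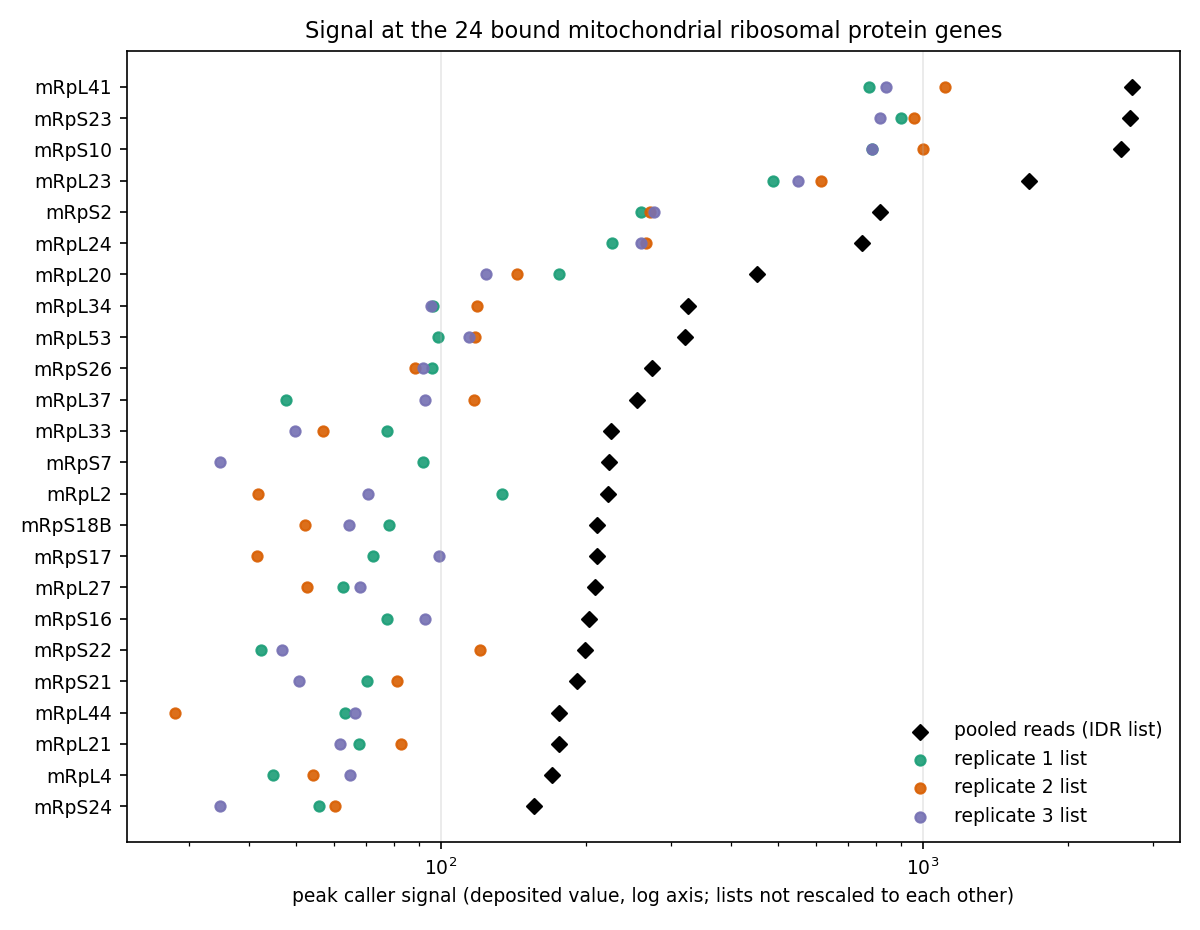
Peak caller signal (deposited value, log axis) at each of the 24 bound mitochondrial ribosomal protein genes, with black diamonds for the pooled reads and coloured dots for replicates 1, 2 and 3. Among the 12 strongest genes the SD of the replicate signals is lowest at mRpS2, 3.30% of the mean, and highest at mRpL37, 41.1%; mRpS7 and mRpS16 have no replicate 2 dot because that list has no region at their summits.

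The remaining 12 bound genes had pooled signals from 156 at mRpS24 to 224 at mRpS7. They were mRpS7, which shares its promoter with the cell-cycle kinase gene Cdk1, mRpL2, mRpS18B, mRpS17, mRpL27, mRpS16, mRpS22, mRpS21, mRpL44, mRpL21, mRpL4 and mRpS24. Several are core proteins in bacteria: L27 reaches the peptidyl transferase centre, L4 lines the peptide tunnel and S7 organises the head of the small subunit. Their neighbours include Snr1, a SWI/SNF remodeller subunit gene, beside mRpL44, rept, an AAA ATPase gene, beside mRpL21, and Apc2 beside mRpS24. Over all 24, the median signal was 225 (quartiles 202 and 527), against 295 (210 and 506) over the 3233 bound protein-coding genes. The upper quartile reflects 6 genes that lie above the 90th percentile of IDR peaks: mRpL41, mRpS23, mRpS10, mRpL23, mRpS2 and mRpL24. How many of the 3233 bound protein-coding genes lie above that percentile was not counted.

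Support from single replicates was uneven. Of the 24 sites, 13 were among the 5586 highest regions of all 3 replicates, 8 of 2 and 3 of 1, the last being mRpS7, mRpS22 and mRpS24. This tally was not made for other bound genes. With summits required among the highest regions of both other replicates, 15, 17 and 15 members remained without replicates 1, 2 and 3. Over the 3233 bound protein-coding genes, 2327, 2490 and 2236 remained. A region of any rank covered the summit in all 3 replicate lists for 22 sites, and mRpS7 and mRpS16 had none in replicate 2. At mRpS22 the signals of replicates 1 and 3 were 42.3 and 47.0, and that of replicate 2 was 120.4. Where a replicate region existed, its summit lay a median of 14 bp (upper quartile 44.5 bp, highest 163 bp, n = 70 regions) from the IDR summit.

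The summits sat in the DNA between the genes. For 23 of the 24 (95.8%) the summit was upstream of the gene's own start site, against 78.6% of the 3233 bound protein-coding genes, and for 20 of 24 (83.3%) it lay between the 2 start sites, against 56.1% of the 1874 bound head-to-head genes. In 17 of 24 (70.8%) the summit was nearer to the neighbour's start site than to that of the mitochondrial ribosomal protein gene, against 42.6%. Of 24, 22 and 24 sites with a region in replicates 1, 2 and 3, the summit was upstream in 23, 21 and 23, between the start sites in 19, 17 and 19, and nearer to the neighbour in 15, 16 and 17. The median distance to the gene's own start site was 147 bp (quartiles 124.5 and 276.5), against 184 bp (93 and 399) for all bound genes. In the replicate regions over these sites it was 153, 225.5 and 149 bp in replicates 1, 2 and 3. Replicate 2 has no region at mRpS7 and mRpS16, whose IDR summits lay 99 and 46 bp from their start sites. From the members that each replicate list bound, the median was 184, 167 and 144 bp. Only 58.0% of the 3233 bound genes are head to head, as all 24 members are. Neither the upstream share nor the distance was counted over head-to-head genes alone. By annotation, 19 summits were intergenic, 3 in a 5′ UTR (of mRpL23, norpA and, for mRpL27, CG15435) and 2 in an intron (of AGO1 and FoxK). Summits at other bound genes were not sorted in this way, so these counts have no reference share.

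**Figure D2:**
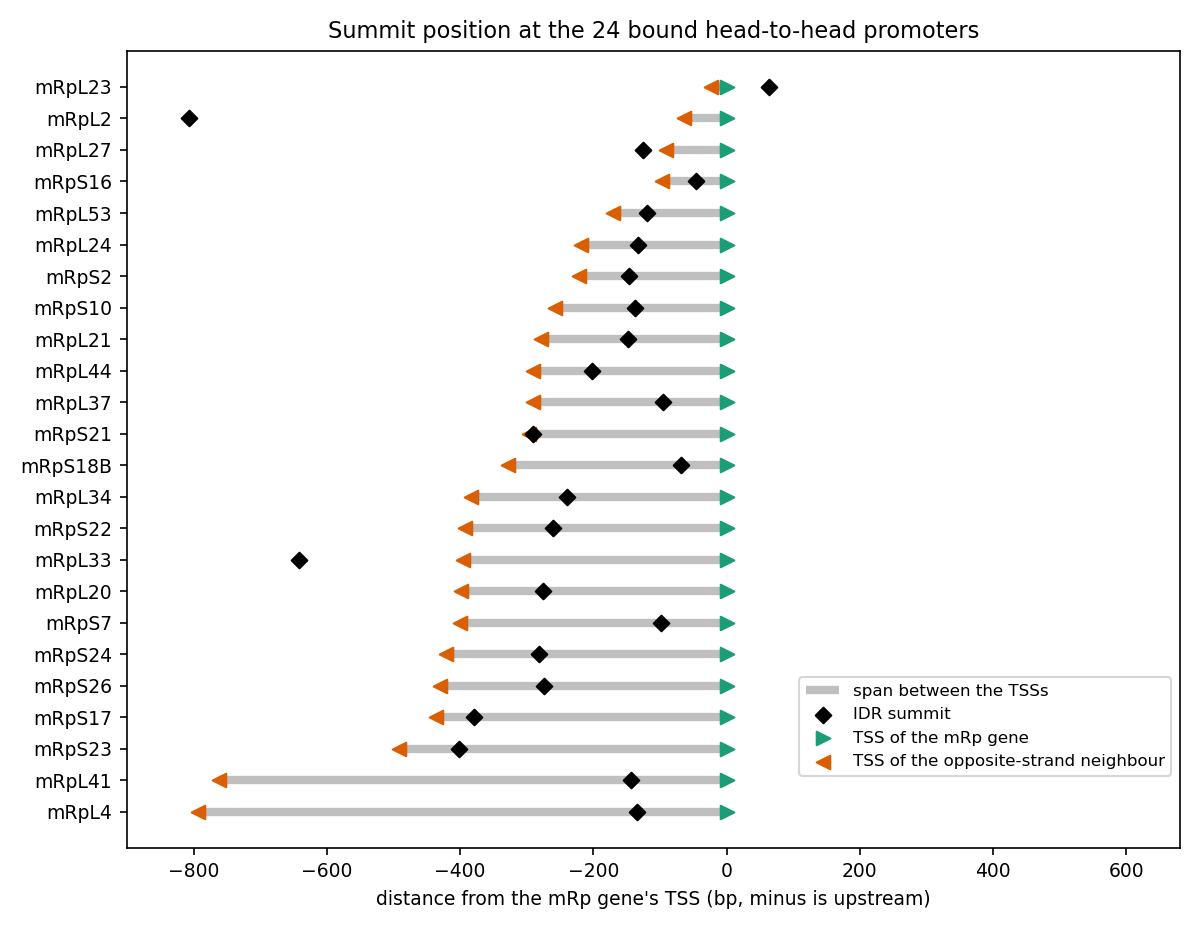
Position of the IDR summit (diamond) in bp from the start site of each bound mitochondrial ribosomal protein gene (green triangle at 0), with the opposite-strand neighbour's start site in orange and the span between them in grey. The rows run from the closest pair, mRpL23 and CG9004 at 24 bp, to the widest, mRpL4 and CG4440 at 793 bp; 20 of 24 diamonds lie on the grey span, and the 4 that do not are mRpL23, mRpL2, mRpL27 and mRpL33.

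One peak thus counts for a pair of genes: all 24 neighbours were themselves bound by the same rule, as were the neighbours of 1720 of the 1874 bound head-to-head genes. For the 24 this follows from the rule, because each summit lay at most 743 bp from the neighbour's start site. The lists cannot say which gene of a pair a peak belongs to.

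No gene of the family that stands alone was bound. Among the 13 genes with no other protein-coding start site within 1000 bp (mRpS5, mRpL14, mRpL19, mRpL10, mRpL12, mRpL40, mRpL45, mRpL49, mRpL9, mRpS33, mRpS34, mRpS35 and mRpS9) 0 were bound, which allows up to 24.7%, against 15.4% of all such genes. mRpL36 and mRpL13, whose only near neighbour is on the same strand, were not bound either. In the replicate lists, genes with any shared promoter (60 genes) were bound in 40.0%, 35.0% and 36.7% of cases, against 7.69%, 0% and 0% of the 13 without, where the 1 bound gene of replicate 1 was mRpL10, a stalk protein gene. Over all protein-coding genes the same replicates gave 33.8%, 31.8% and 33.6% with a shared promoter, against 16.2%, 14.1% and 15.7% without. The mean was 37.2% ± 2.55, against 2.56% ± 4.44 (SD, n = 3), a difference of 34.7 ± 2.20 percentage points that was positive in 3 of 3 replicates. The exact two-sided sign-flip permutation test gave p = 0.25, the smallest that 3 replicates allow, and 0.333 after Benjamini-Hochberg adjustment over 4 tests. With the 2793 highest regions of each replicate the difference was 21.1 points.

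Over all 73 genes, the replicates called 25, 21 and 22 bound (34.2%, 28.8% and 30.1%), against 23.7%, 21.7% and 23.4% of all protein-coding genes. The mean was 31.1% ± 2.85, against 22.9% ± 1.08 of the other protein-coding genes (SD, n = 3), a difference of 8.15 ± 2.10 points, positive in 3 of 3 (exact permutation p = 0.25, adjusted 0.333). It was 3.49 points with the 2793 highest regions of each replicate, and with all regions it was −0.317 in replicate 2, so positive in 2 of 3. Within head-to-head genes the gap was smaller: the replicates called 24, 21 and 22 of 58 (41.4%, 36.2% and 37.9%), against 36.2%, 34.6% and 36.2%. If the 73 genes had been bound at the rates of other genes with the same arrangement (head to head, same strand only, or neither), 23.4 of them (32.1%) would have been bound, where 24 were. For replicates 1, 2 and 3 those rates give 32.1%, 30.4% and 32.1%. Matching the spacing of the pair as well, in classes chosen with the values in view, gives 24.0 genes (32.9%). In the replicates it gives 32.8%, 31.2% and 33.0%. The share of bound genes in the family was therefore close to that of other genes with promoters arranged alike, and the replicate values fell on both sides of it.

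The pairs differ in spacing, and the bins used here were chosen with the values in view. Of 18 genes with start sites 1 to 100 bp apart 4 were bound (22.2%), against 33.1% of all genes so spaced. At 101 to 200 bp the count was 1 of 4 (25%), against 27.1%. At 201 to 300 bp it was 7 of 11 (63.6%), against 43.0%, and at 301 to 500 bp 10 of 20 (50%), against 41.4%. At 501 to 1000 bp it was 2 of 5 (40.0%), against 33.1%. The median spacing was 312.5 bp for the 24 bound and 217 bp for the 34 unbound head-to-head members, against 296 and 282 bp for all genes. In the closest class the replicates disagreed, with 7, 2 and 7 of 18 bound in replicates 1, 2 and 3, against 34.2%, 28.9% and 34.8% of all genes so spaced. The members' share was thus above that of all genes in replicates 1 and 3 (38.9%) and below it in replicate 2 (11.1%).

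**Figure D3:**
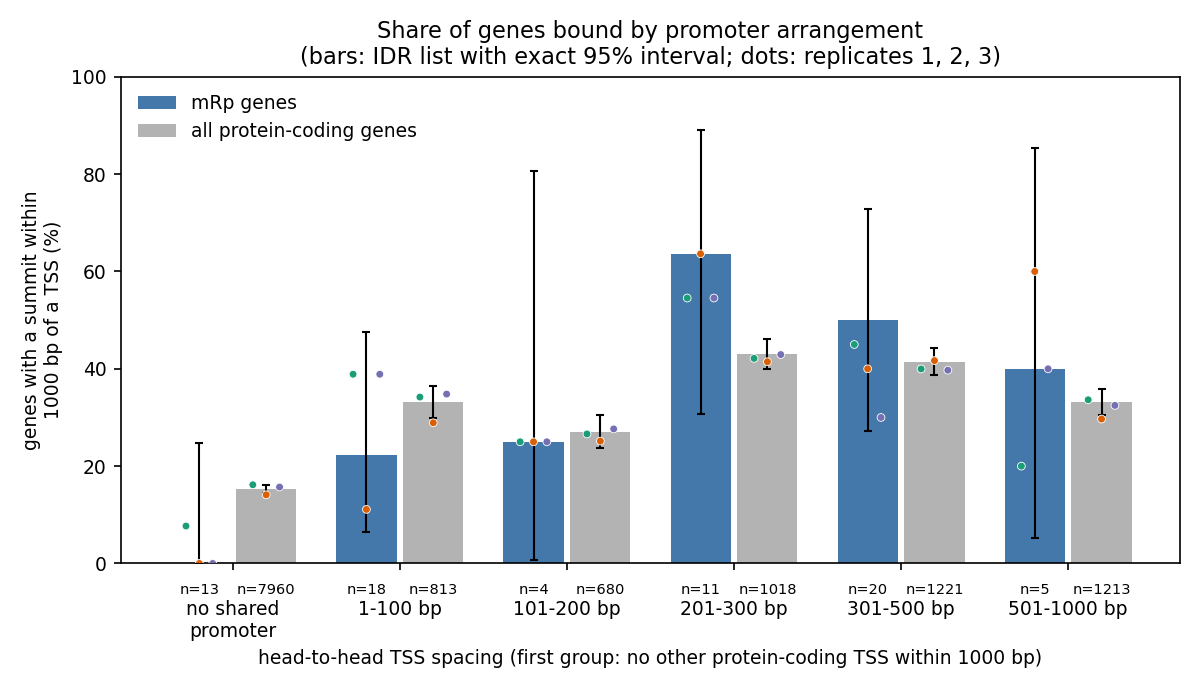
Percentage of genes bound in the IDR list (bars, with exact 95% intervals) for mitochondrial ribosomal protein genes (blue) and all protein-coding genes (grey), by promoter arrangement and head-to-head spacing, with dots for replicates 1, 2 and 3 from left to right. The blue bar is at 0 for the 13 genes with no shared promoter and highest, 63.6%, at 201 to 300 bp; its intervals are wide because each class holds 4 to 20 members.

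Subunit and family number gave smaller contrasts. The replicates called 31.9%, 25.5% and 29.8% of large-subunit genes bound, against 38.5%, 34.6% and 30.8% of small-subunit genes, where all protein-coding genes had 23.7%, 21.7% and 23.4%. The large-minus-small difference was −5.54 ± 4.14 points (SD, n = 3), lower in 3 of 3 replicates (exact permutation p = 0.25, adjusted 0.333), but with all regions it was 3.52 in replicate 1, and its mean was −9.08 with summits within 500 bp. The intervals of the 2 subunits in the IDR list overlap. Members whose number is that of a bacterial family (L1 to L36, S1 to S21) were bound in 16 of 42 cases (38.1%), and those with higher, mitochondrial numbers in 8 of 31 (25.8%), against 23.2% of all protein-coding genes. Split by subunit, the counts were 9 of 28 and 4 of 19 for the large subunit and 7 of 14 and 4 of 12 for the small one.

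By arm, 1 of 11 members on X was bound (9.09%), against 22.1% of all genes there, and 7 of 12 on 2L (58.3%), against 23.2%. On 2R the count was 5 of 12 (41.7%), against 22.2%, on 3L 5 of 17 (29.4%), against 24.4%, and on 3R 6 of 21 (28.6%), against 24.1%. The 2L count was 7, 6 and 7 of 12 in replicates 1, 2 and 3. On X it was 2, 2 and 0 of 11. With 11 to 21 members an arm, a shift of a few genes changes these shares by over 10 points, and the spread over arms was not tested.

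No difference in signal rank from other bound genes was resolved. The median percentile of the bound members' highest regions, among the 5586 regions of the same replicate, was 34.0, 71.8 and 53.2 in replicates 1, 2 and 3, against 56.3, 66.1 and 59.3 for other bound protein-coding genes. The difference was −7.58 ± 14.1 points (SD, n = 3), higher in the family in 1 of 3 replicates (exact permutation p = 0.5, adjusted 0.5). Its SD exceeds its size, and with the 2793 highest regions it was 0.0716, so no direction can be given.

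The 49 unbound genes were not all empty. Of them, 26 had a pooled region within 1000 bp that fell under the IDR threshold, so that 50 of 73 members (68.5%) had some pooled region, against 53.3% of all protein-coding genes. Just under the lowest bound gene, mRpS24 at 156, came mRpL18 at 147, mRpS11 at 144, mRpS25 at 131, mRpL47 at 128 and mRpS29, which encodes a GTP-binding protein, at 127. mRpL43 had 122, mRpL39 119 and mRpL48 118. The other 18 ran from 103 at mRpL16 and mRpL36, through mRpL55, mRpL11, mRpS6, mRpS5, mRpL17, mRpL32, mRpS31, mRpL54, mRpL14, mRpL28, mRpL19, mRpL51, mRpL22, mRpL35 and mRpL1, to 51.2 at mRpS18A.

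Of the 49, 9 were bound in a replicate list: mRpS11 in replicates 1 and 3, mRpL18, mRpL16, mRpL55 and mRpL10 in replicate 1, mRpS25 and mRpL39 in replicate 2, and mRpL47 and mRpL48 in replicate 3. The remaining 40 were bound in none.

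Another 14 unbound genes had no region in the pooled or any replicate list: mRpL12, which encodes the stalk protein, mRpL13, mRpL15, mRpL3, mRpL30, mRpL40, mRpL42, mRpL45, mRpL46, mRpL52, mRpS14, mRpS28, mRpS33 and mRpS9. Of these, 8 are head to head, so a shared promoter did not by itself come with a region. The last 9, mRpL10, mRpL38, mRpL49, mRpL50, mRpL9, mRpS18C, mRpS30, mRpS34 and mRpS35, had no pooled region but at least 1 replicate region. An IDR summit lay within 5000 bp of 18 unbound genes. No share over all unbound protein-coding genes was counted for the genes without a region, those bound only in a replicate list, or these 18.

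**Figure D4:**
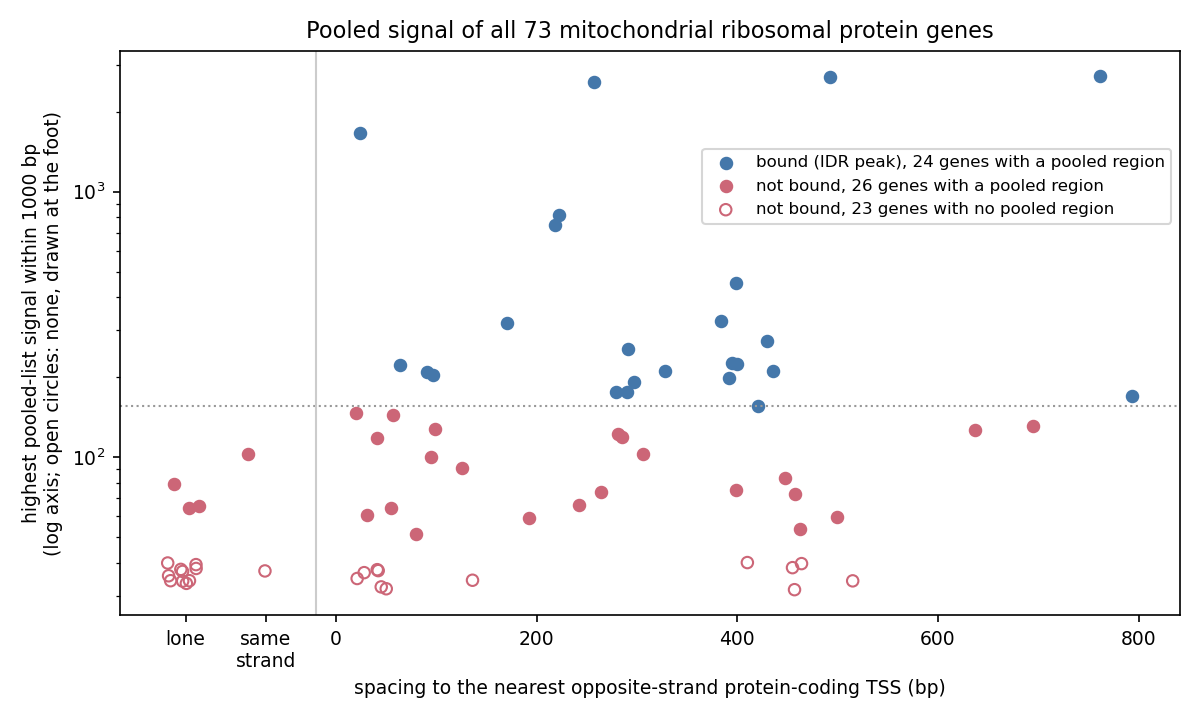
Highest pooled signal within 1000 bp (log axis) of each of the 73 mitochondrial ribosomal protein genes against the spacing to the nearest opposite-strand protein-coding start site, with the genes that have none at the left. Bound genes (blue) lie at or above the dotted line at the lowest bound signal, 156; the 26 filled red points are unbound genes with a pooled region and the 23 open circles, drawn at the foot, have none.

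Of 47 other genes of mitochondrial gene expression found by symbol, 8 were bound (17.0%), against 23.2% of all protein-coding genes, a difference that was not tested. The counts were 0 of 9 translation factors, 2 of 15 mitochondrial aminoacyl-tRNA synthetases, 6 of 20 genes for transcription, RNA and DNA, 0 of 1 for membrane insertion (OXA1L), and 0 of 2 for tko and bonsai, mitochondrial ribosomal protein genes that carry other names and so fall outside the naming rule. The bound RNA and DNA genes were PNPase, an RNA exonuclease gene, with a pooled signal of 3000.2, SLIRP2 with 1452, mtSSB, which encodes the single-strand DNA-binding protein, with 478, SLIRP1 with 452, mTerf5 with 223 and rswl with 157. The bound synthetase genes were LeuRS-m with 750.2 and ArgRS-m with 232. Of these 8, rswl was bound in 0 replicate lists, mTerf5 in 2 and the rest in 3. The rswl signal is close to the lowest of any bound protein-coding gene, 156.

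The cytosolic ribosomal protein genes differed in both count and position. Of the mitochondrial family 24 of 73 were bound, against 77 of 87 cytosolic genes (88.5%). No mitochondrial member without a head-to-head neighbour was bound, of 15, against 26 of 33 cytosolic ones. The median signal of bound genes was 225 in the mitochondrial and 548 in the cytosolic family, and the median summit distance 147 bp and 25 bp. Oxidative phosphorylation genes were closer in share, 19 of 84 (22.6%), which is near the 23.2% of all protein-coding genes. Of the 19, 15 were head to head, against 58.0% of all bound protein-coding genes. Thus 15 of 43 head-to-head oxidative phosphorylation genes were bound and 4 of 41 others, against 36.5% and 15.4% of all genes so arranged. The median signal of the 19 was 262, but their median distance was 79 bp. These are counts over different genes in the same lists, with no test between the families.

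Promoter words were counted in 300 bp windows (250 bp upstream to 50 bp downstream of a start site), on either strand. TATCGATA was in 15 of 73 windows of the family (20.5%), against 9.36% of all protein-coding genes and 15.6% of head-to-head genes. It was in 4 of 24 bound and 11 of 49 unbound members, where all bound genes had 12.2%. YATTAAR was in 32 of 73 (43.8%), against 33.2% of all genes and 35.7% of head-to-head genes, and in 14 of 24 bound (58.3%) and 18 of 49 unbound members (36.7%), where all bound genes had 36.3%. TAATTA was in 7 of 24 bound (29.2%) and 8 of 49 unbound members (16.3%), where all bound genes had 22.0%. It was in 15 of 73 members (20.5%), against 20.4% of all genes and 23.3% of head-to-head genes. CATTAA, which lies inside CATTAAA and CATTAAG, was in 7 of 24 bound (29.2%) and 7 of 49 unbound members (14.3%), where all bound genes had 23.1%. It was in 14 of 73 members (19.2%), against 21.1% of all genes and 21.9% of head-to-head genes. These windows reach 250 bp upstream, and the upper quartile of the bound members' summit distance was 276.5 bp. Some bound members thus have their summit outside the window. The unbound members include all 15 without a head-to-head neighbour.

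The other words searched were GGTCACAC, in 8 of 73 (11.0%) against 7.70% of all genes and 13.0% of head-to-head genes, CGATA, which lies inside TATCGATA, in 58.9% against 47.4% and 58.9%, and the E-box CACGTG in 6.85% against 4.20% and 4.88%. The Ets word CCGGAA was in 4.11% against 6.78% and 6.79%, TATAAA in 46.6% against 45.8% and 47.8%, and the GATA-factor word (AGATAA or AGATAG or TGATAA or TGATAG) in 52.1% against 46.7% and 46.0%. In the 200 bp centred on the summits, TAATTA was in 6 of 24 (25%) at members, against 16.4% of the 2909 summits at any protein-coding start site, and YATTAAR in 7 of 24 (29.2%), against 27.0%. The other words there went both ways: CATTAA was in 3 of 24 (12.5%), against 16.1%, CGATA in 25%, against 30.5%, TATAAA in 29.2%, against 34.7%, the GATA-factor word in 29.2%, against 35.6%, CCGGAA in 4.17%, against 5.81%, TATCGATA in 8.33%, against 4.23%, GGTCACAC in 8.33%, against 3.27%, and CACGTG in 12.5%, against 2.72%. Median GC content there was 34.2%, against 36.5%. In the 300 bp windows it was 34.0% for bound and 36% for unbound members, and 38.0% for all protein-coding genes. The part of base composition in the shares of A/T-rich words was not tested. A word is a match of letters and not a measured site.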

How the data were processed

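Regions of HHEX-GFP chromatin immunoprecipitation from 3 biological replicates of 1 group were analysed as deposited. Per the labels and file descriptions, the replicate and pooled lists are peaks and background made as input for IDR on dm6, and the thresholded list derives from them. The deposited signal of a region is the value of the authors' peak caller, and the −log10 q is also as deposited by the authors. Which aligner, peak caller and IDR threshold were used: not given in the sources used here. Lists on dm3 were not used.

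Genes and start sites came from Ensembl release 115 (BDGP 6.54), without transposable elements, on 6 arms (23581 distinct TSSs), and sequence from genome release 6. A summit within 1000 bp of any TSS made a gene bound. Shares were compared within replicates by an exact two-sided sign-flip permutation test over the 3 replicates, with Benjamini-Hochberg adjustment over 4 tests. Tests over genes were not made, since neighbours share peaks. Replicates are labelled as biological; no source used here says whether they came from separate collections. The bound call was tested on simulated data. The members, gene lists and words were chosen with earlier results of these data known. The rule for naming was all members, with full values for the 12 bound members of highest signal. Python 3.11.15, numpy 2.4.6, pandas 2.3.3 and scipy 1.17.1 were used. Alternatives changed the window, the start sites, the number of regions and the replicates. The name of 1 neighbour gene and 1 further promoter sequence are not reported here.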

Additional observations from a re-analysis of the deposited data

How the results depend on the processing

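The count of bound members, 24 within 1000 bp, was 22 within 500 bp (all protein-coding genes 19.7%) and 24 with the 5′-most start site alone (21.1%). It was 14 within 200 bp (13.9%), 15 when the peak itself had to cover a start site (12.7%), and 11 with the stronger 2793 IDR peaks, where the share of members (15.1%) was near that of all genes (14.1%). Requiring the summit to lie among the highest regions of both other replicates gave 15 to 17 with each replicate left out in turn, a stricter rule by construction; all genes then gave 16.0 to 17.9%. The narrower windows, the single start site and the smaller sets of peaks can only remove genes. Their bound members were therefore among the 24 by construction. Requiring the peak to cover a start site also added no gene. The signal percentile difference, −7.58, was 0.0716 points with 2793 regions per replicate (exact permutation p = 1) and −14.2 to −0.215 with replicates left out; the cause was not tested. The mean share of members bound minus that of other genes ranged from 3.49 points with 2793 regions to 9.58 points with all regions, and from 6.95 to 8.84 points with replicates left out. With all regions the replicates disagreed in sign, at 19.3, −0.317 and 9.74 points in replicates 1, 2 and 3 (exact permutation p = 0.5), and so did the large-minus-small difference, at 3.52, −15.1 and −11.4 points (p = 0.5). The mean shared-promoter difference lay between 21.1 and 39.2 points, the mean large-minus-small difference between −9.08 and −3.76 points, and the median distance of IDR summits between 137 and 147 bp; from the members each replicate list bound, it was 184, 167 and 144 bp (165 ± 20.1, SD, n = 3). No pairing of samples across groups was possible because there is 1 group. The sign-flip tests paired values within replicates, since both values of each difference come from the same replicate list. Read depth is unknown, so a gene without a region is not shown to be unoccupied.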
